A study of Mus musculus with 4 samples.

Results

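DNA replication genes were followed in mouse CD4+ T cells that had been cultured under conditions that induce T follicular helper (Tfh) cells. The genes were taken by symbol from a list of 49 genes that encode the replication machinery, and all 49 were found among the 54752 genes listed in each library. Naive CD4+ T cells came from the spleens of WT mice or of Mek1/2-tKO mice, which are homozygous for floxed Map2k2 and Map2k1 (fl/fl at each) and carry Cd4-Cre, so that MEK1 and MEK2 are removed from cells that have used the Cd4 promoter. The cells of both genotypes were treated alike: plate-bound anti-CD3 and anti-CD28 for activation, IL-6, and antibodies that block TGF-β, IL-4, IL-2 and IFN-γ. On day 3, viable cells were sorted again and their RNA was sequenced in 2 libraries per genotype. The age and sex of the spleen donors are not given in the sources used here, nor is whether the 2 libraries of a genotype came from separate mice, so the p-values measure the spread between these libraries, which may be technical. The libraries held 18858860 and 18807774 counts in WT and 16330802 and 18931090 counts in Mek1/2-tKO, at which 3 counts, the limit that a count of 0 allows, correspond to 0.154 to 0.194 CPM (counts scaled to a common library total adjusted by TMM factors).

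Replication starts at origins bound by the origin recognition complex. Cdc6 and Cdt1 load the ring-shaped MCM2-7 helicase there before S phase, and Mcm10, Cdc45 and the GINS proteins then turn it into the moving helicase. Behind it, polymerase alpha with primase starts the new strands, polymerases epsilon and delta extend them on the sliding clamp PCNA, and Fen1 and ligase 1 join the pieces of the lagging strand. Many of these genes are transcribed at the passage from G1 into S phase under control of E2F factors, and activated T cells switch them on when they leave quiescence and divide. MEK1 and MEK2 are the kinases that activate ERK, one of the pathways by which the antigen receptor drives that passage.

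The targeted genes were read before the rest. Map2k1 stood at 182 and 187 CPM in the WT libraries and at 98 and 105 CPM in the Mek1/2-tKO libraries, and it was called lower (log2 fold change -0.86, SE 0.08, edgeR quasi-likelihood test, adjusted p = 1.29e-06). Map2k2 stood at 155 and 165 CPM in WT and at 172 and 182 CPM in Mek1/2-tKO (log2 fold change 0.15, SE 0.08, adjusted p = 0.126). The Map2k2 value does not show the deletion, and a count over a whole gene can miss the loss of floxed exons, so the reads of the floxed exons themselves were not analysed here. Cd4, which defines the labelled cell type, stood at 297 and 289 CPM in WT but at 18.8 and 25.1 CPM in Mek1/2-tKO, and the summed level of 12 B-cell markers was 1288 and 1267 CPM in WT but 6977 and 6928 CPM in Mek1/2-tKO. WT and Mek1/2-tKO are therefore used throughout as the names on the labels, and every direction is between the libraries so labelled. The marker lists are described below, after the replication genes. In such bulk RNA, fewer cells of a type and less RNA per cell cannot be told apart, and the part of the other cells in the results on the replication genes was not tested.

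Because E2F factors are the textbook regulators of these genes, the promoters were searched for E2F-type octamers. The windows run from 250 bases before to 50 bases after each RefSeq start (GRCm38.p6), and the octamers were TTTGGCGC, TTTGCCGC, TTTCGCGC and TTTCCCGC on either strand. Of the 49 genes, 41 had an entry in the promoter table, 7 of them more than 1. The 4 promoters printed here hold the most octamers among the MCM2-7 genes, the licensing factors, the genes of helicase activation and those of the clamp and loader, with ties resolved by symbol; other groups with octamers, such as the polymerases, are not printed. They are written 5′ to 3′ on the strand of the gene, with the octamers in capitals.
Mcm6, chr1:128359656-128359955, minus strand: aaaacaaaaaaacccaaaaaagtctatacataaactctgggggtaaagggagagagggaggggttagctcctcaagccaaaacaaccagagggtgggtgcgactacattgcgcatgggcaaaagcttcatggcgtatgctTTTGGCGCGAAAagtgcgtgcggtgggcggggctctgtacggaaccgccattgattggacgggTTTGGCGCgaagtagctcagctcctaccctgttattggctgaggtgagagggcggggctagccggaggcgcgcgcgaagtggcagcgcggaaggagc
Cdc6, chr11:98907901-98908200, plus strand: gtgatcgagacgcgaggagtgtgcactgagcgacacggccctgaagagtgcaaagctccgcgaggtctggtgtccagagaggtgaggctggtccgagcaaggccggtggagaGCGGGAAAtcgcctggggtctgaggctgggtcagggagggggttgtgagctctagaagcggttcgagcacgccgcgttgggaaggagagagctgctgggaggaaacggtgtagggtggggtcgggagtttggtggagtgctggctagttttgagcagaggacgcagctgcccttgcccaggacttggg
Gins3, chr8:95633309-95633608, plus strand: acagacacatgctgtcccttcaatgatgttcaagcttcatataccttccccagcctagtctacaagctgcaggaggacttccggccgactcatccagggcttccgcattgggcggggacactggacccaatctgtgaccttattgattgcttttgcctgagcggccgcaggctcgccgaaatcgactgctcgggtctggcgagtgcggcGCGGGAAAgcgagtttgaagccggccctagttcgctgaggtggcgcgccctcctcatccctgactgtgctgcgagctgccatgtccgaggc
Rfc3, chr5:151651159-151651458, minus strand: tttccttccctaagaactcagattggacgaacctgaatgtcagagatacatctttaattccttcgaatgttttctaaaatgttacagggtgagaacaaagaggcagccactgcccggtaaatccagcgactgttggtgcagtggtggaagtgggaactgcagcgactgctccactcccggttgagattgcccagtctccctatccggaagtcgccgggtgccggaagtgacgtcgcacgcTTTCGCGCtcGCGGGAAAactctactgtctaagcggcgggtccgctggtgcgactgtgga

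The Mcm6 window held 3 octamers, of which the 2 farther from the start overlap each other on opposite strands, with first bases 110 and 106 bases upstream of the start. The third octamer of Mcm6 began 47 bases upstream. The octamer of Cdc6 began 138 bases and that of Gins3 41 bases upstream, and the Rfc3 window held 2 octamers, 1 beginning 10 bases upstream and 1 at the start itself. No promoter of the nucleotide supply genes in the table held an octamer. An octamer was found in 16 of the 50 promoters of the replication genes (32%) and in 744 of all 32851 promoters in the table (2.26%). CCAAT was found in 56% against 37.4%, GGGCGG in 74% against 35.7% and TTTGAA in 10% against 17.9%, and the promoters of the replication genes had a median GC content of 61.3% against 52.7% for all promoters, so that base composition differs as well. Of the 16 genes with an octamer, 15 had a negative log2 fold change, with -0.50, -0.54 and -0.15 for Mcm6, Cdc6 and Gins3, whose promoters are printed, and Rfc3 had a positive one (0.45). The median log2 fold change was -0.52 over the 16 genes with an octamer and -0.17 over the 25 genes without one. The other motifs split the genes as well, with medians of -0.44 with and -0.17 without GGGCGG, which all 11 genes called lower in the table hold against 7 for the octamers, and of -0.49 with and -0.27 without CCAAT. These are descriptions of the windows and not of binding.

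The comparison of Mek1/2-tKO with WT asked how the replication machinery is expressed in cultures labelled as CD4+ T cells that lack MEK1 and MEK2, labels that the levels of Map2k2 and Cd4 given above do not bear out. All 49 genes had enough counts to be tested, among 14330 genes in all. Transcripts of 13 replication genes were lower in Mek1/2-tKO: Mcm2, Mcm3, Mcm4 and Mcm7 of the helicase ring, Mcm10, which helps to activate it, Cdt1 of the licensing factors, Pola1, Pold1 and Pole of the polymerases, Rfc1 of the clamp loader, Lig1, which seals nicks, and Uhrf1 and Chaf1a, which help to copy chromatin. Fen1 alone among the 49 was called higher, and 35 genes were not called in either direction. With the length and GC trends described below taken out, Mcm2, Mcm7, Mcm10, Pola1, Pold1, Rfc1 and Fen1 lost their call and Rrm2 gained one. A call required an adjusted p under 0.05 (edgeR quasi-likelihood test, Benjamini-Hochberg over all genes tested) and a fold change of at least 1.5.

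Read against all genes tested, the 13 genes called lower were 26.5% of the 49, where 16.4% of all genes were called lower, and the 1 gene called higher was 2.04%, where 19.3% of all genes were called higher. By the adjusted p alone, 25 of the 49 were lower and 5 were higher, against 27.2% and 27.8% of all genes. The median log2 fold change of the 49 genes was -0.24 (range -1.28 to 0.71), and that of all genes tested was 0.02. The log2 fold change was negative for 36 of the 49 genes and positive for 13. Summed over the 49 genes, the level was 9228 and 9340 CPM in the WT libraries and 7208 and 6973 CPM in the Mek1/2-tKO libraries.

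**Figure D1:**
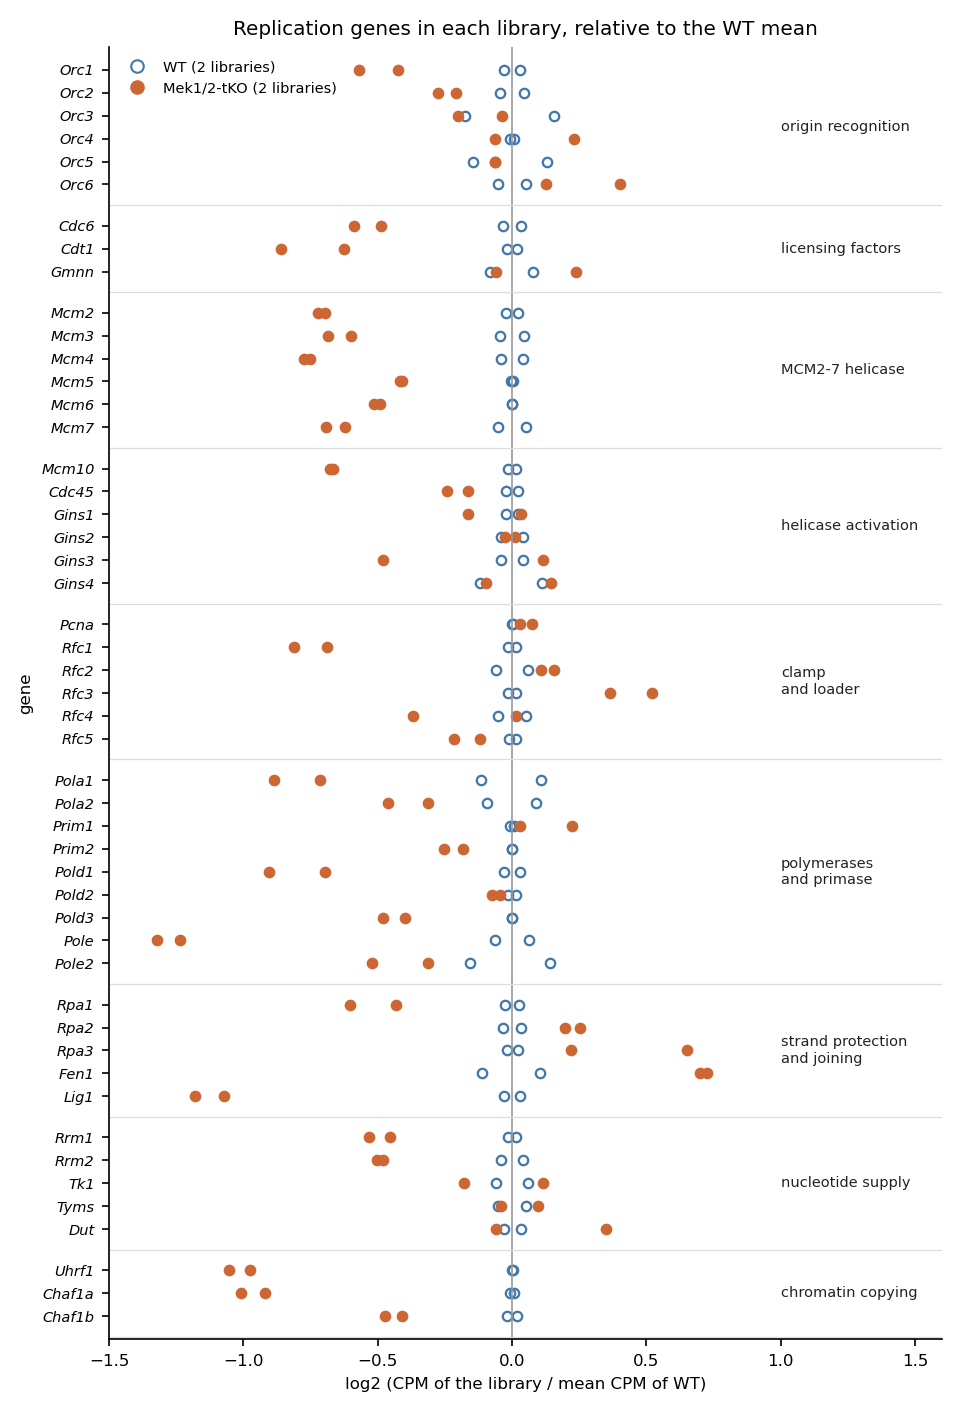
Each row is one of the 49 replication genes, grouped by role, and each point is 1 library, at the log2 of its CPM over the mean CPM of the 2 WT libraries (open circles, WT; filled circles, Mek1/2-tKO). The Mek1/2-tKO points of the 6 MCM2-7 genes, Lig1, Pole, Uhrf1 and Chaf1a lie well to the left of the WT points, while those of Gins1, Gins2, Gins4, Tk1, Tyms and Gmnn overlap with them.

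The 6 subunits of the MCM2-7 helicase, the ring that unwinds the parental strands, all had lower levels in Mek1/2-tKO. Their summed level was 2964 and 3030 CPM in WT, and 1989 and 2003 CPM in Mek1/2-tKO. Mcm2 stood at 431 and 444 CPM in WT and at 265 and 270 CPM in Mek1/2-tKO (log2 fold change -0.71, SE 0.07, adjusted p = 2.31e-06). Mcm3 stood at 637 and 678 CPM against 409 and 434 CPM (log2 fold change -0.64, SE 0.08, adjusted p = 8.94e-06). Mcm4 had the largest change of the ring, from 334 and 316 CPM to 190 and 193 CPM (log2 fold change -0.76, SE 0.07, adjusted p = 1.53e-06). In each of these genes the 2 Mek1/2-tKO libraries were close together and far below both WT libraries.

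Mcm7, whose gene also holds the microRNAs Mir25 and Mir93, stood at 353 and 380 CPM in WT and at 238 and 227 CPM in Mek1/2-tKO (log2 fold change -0.66, SE 0.08, adjusted p = 7.25e-06). Mcm5 stood at 639 and 642 CPM against 482 and 480 CPM (log2 fold change -0.41, SE 0.07, adjusted p = 2.56e-04). Mcm6, whose promoter is printed above, stood at 569 and 570 CPM against 405 and 399 CPM (log2 fold change -0.50, SE 0.07, adjusted p = 4.90e-05). Mcm5 and Mcm6 passed the adjusted p but stayed under the fold of 1.5, so that 4 of the 6 subunits were called lower and all 6 had an adjusted p under 0.05. The median log2 fold change of the ring was -0.65, with subunits between -0.76 and -0.41. With the length and GC trends described below taken out, 2 of the 6 were called lower, Mcm3 and Mcm4, and the median of the ring was -0.46, with Mcm2 at -0.41 and Mcm7 at -0.51. The called subunits lie in GRCm38 as follows: Mcm2 (ENSMUSG00000002870.8) on chromosome 6 from 88883474 to 88898780, Mcm3 (ENSMUSG00000041859.10) on chromosome 1 from 20802968 to 20820312, Mcm4 (ENSMUSG00000022673.5) on chromosome 16 from 15623897 to 15637400 and Mcm7 (ENSMUSG00000029730.16) on chromosome 5 from 138164583 to 138172422.

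Transcripts of the factors that load and start the helicase had unlike fold changes. Cdt1, which brings MCM2-7 to the origin, stood at 120 and 117 CPM in WT and at 65.2 and 76.8 CPM in Mek1/2-tKO and was called lower (log2 fold change -0.74, SE 0.10, adjusted p = 2.61e-05). Geminin, the inhibitor of Cdt1 (Gmnn), stood at 99.5 and 111 CPM in WT and at 124 and 101 CPM in Mek1/2-tKO (log2 fold change 0.10, SE 0.10, adjusted p = 0.453), so its libraries overlapped, and its value became -0.18 with the length and GC trends described below taken out. Cdc6, the loading ATPase, stood at 115 and 110 CPM against 80.2 and 74.8 CPM (log2 fold change -0.54, SE 0.09, adjusted p = 1.71e-04), just under the fold required for a call, and its value was -0.33 with the trends taken out, where that of Cdt1 was -0.75. The pair of loading factors therefore had negative fold changes while the inhibitor did not on the main scale, although the difference between them was not tested. Cdt1 (ENSMUSG00000006585.3) is a short gene on chromosome 8, from 122568015 to 122573554.

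None of the 6 subunits of the origin recognition complex was called. Orc1, the subunit whose amount follows the cell cycle, differed most, from 47.9 and 45.9 CPM in WT to 31.6 and 34.9 CPM in Mek1/2-tKO (log2 fold change -0.49, SE 0.11, adjusted p = 0.00207). Orc5 differed least, with 43.1 and 35.6 CPM against 37.6 and 37.6 CPM (log2 fold change -0.07, SE 0.12, adjusted p = 0.671), and its Mek1/2-tKO values lay inside the WT range. Orc2, Orc3, Orc4 and Orc6 had log2 fold changes of -0.24, -0.12, 0.08 and 0.27, and of these Orc2 and Orc6 had an adjusted p under 0.05, in opposite directions, in the edgeR fit but not with DESeq2 (0.0865 and 0.0651) or with the length and GC trends described below taken out (0.0683 and 0.451, with Orc6 at 0.10). Of the exon bases of Orc2, 29.8% are shared with the neighbouring gene Nif3l1, so that its count is less certain.

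Among the factors that activate the helicase, Mcm10 was called lower, from 145 and 142 CPM in WT to 89.8 and 90.4 CPM in Mek1/2-tKO (log2 fold change -0.67, SE 0.08, adjusted p = 1.37e-05), but it was not called with the length and GC trends described below taken out (-0.32). Its partners were not called. Cdc45, the partner of MCM2-7 in the moving helicase, had a log2 fold change of -0.21 (120 and 124 CPM against 109 and 103 CPM, adjusted p = 0.0533). The 4 GINS genes, whose products complete that helicase, had log2 fold changes of -0.06 (Gins1), -0.01 (Gins2), -0.15 (Gins3) and 0.03 (Gins4), with adjusted p between 0.517 and 0.942, and in all 4 the libraries of the genotypes overlapped. With the trends taken out, Gins1 had -0.33 (adjusted p = 0.0291, edgeR), Gins4 -0.27, Gins3 -0.24 and Gins2 0.09, none called. Gins2 stood at 70.7 and 74.9 CPM in WT and at 73.3 and 71.4 CPM in Mek1/2-tKO (log2 fold change -0.01, SE 0.09, adjusted p = 0.942), but Gse1 on the other strand covers 67.3% of its exon bases. Gins3 was the least even, with 14.3 CPM in one Mek1/2-tKO library and 21.6 CPM in the other. The annotation places Mcm10 (ENSMUSG00000026669.14) on chromosome 2 from 4989714 to 5012791.

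The sliding clamp and its loader did not move as a unit. Pcna, the clamp that holds polymerases on the template, stood at 490 and 489 CPM in WT and at 515 and 499 CPM in Mek1/2-tKO (log2 fold change 0.05, SE 0.07, adjusted p = 0.562), a value near 0 that turns to -0.03 when libraries are scaled by their totals alone and to -0.14 with the length and GC trends described below taken out. Rfc1, the large subunit of the loader, was called lower, from 138 and 135 CPM to 77.8 and 84.7 CPM (log2 fold change -0.75, SE 0.09, adjusted p = 8.29e-06), a call that was lost with the trends taken out (-0.49). The small subunits Rfc2, Rfc3, Rfc4 and Rfc5 had log2 fold changes of 0.13, 0.45, -0.17 and -0.17, and none was called. With the trends taken out, Rfc2 had 0.40 (adjusted p = 0.00104, edgeR) and Rfc4 -0.47 (adjusted p = 0.00569), again without a call, while Rfc3 and Rfc5 had 0.43 and -0.03. Rfc3 stood at 82.3 and 80.7 CPM in WT and at 117 and 105 CPM in Mek1/2-tKO, with an adjusted p of 9.21e-04 and a fold under 1.5. The annotation has Pcna (ENSMUSG00000027342.14) on chromosome 2 from 132249162 to 132253314 and Rfc1 (ENSMUSG00000029191.16) on chromosome 5 from 65261850 to 65335670.

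Among the polymerases, the large catalytic subunits had the lowest values before the length and GC trends described below were taken out. Pole, the catalytic subunit of polymerase epsilon, which copies the leading strand, had the largest change of all 49 genes on that scale. It went from 97.1 and 106 CPM in WT to 43.1 and 40.6 CPM in Mek1/2-tKO (log2 fold change -1.28, SE 0.10, adjusted p = 1.79e-07). With the trends taken out, Lig1 and Uhrf1 had lower values than Pole, with -0.89 for Uhrf1 and -0.86 for Pole. Pold1, the catalytic subunit of polymerase delta, went from 257 and 268 CPM to 140 and 162 CPM (log2 fold change -0.80, SE 0.09, adjusted p = 3.79e-06). Pola1, the catalytic subunit of polymerase alpha, went from 80.2 and 68.6 CPM to 45.3 and 40.2 CPM (log2 fold change -0.80, SE 0.11, adjusted p = 4.40e-05). These are the 3 genes of the group that were called, although only Pole was called with the trends taken out as well. Their positions in GRCm38 are Pole (ENSMUSG00000007080.14) on chromosome 5 from 110286306 to 110337474, Pold1 (ENSMUSG00000038644.14) on chromosome 7 from 44532746 to 44548849 and Pola1 (ENSMUSG00000006678.6) on chromosome X from 93304767 to 93632155.

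The other subunits of the same enzymes had values nearer to 0 or above it, but the difference between subunits was not tested and was smaller with the length and GC trends described below taken out: Pola1 then had -0.49 against -0.45 for Pola2, Pold1 had -0.56 against -0.26 and -0.27 for Pold2 and Pold3, and Pole had -0.86 against -0.52 for Pole2. Pold2, an accessory subunit of polymerase delta, stood at 196 and 200 CPM in WT and at 192 and 188 CPM in Mek1/2-tKO (log2 fold change -0.06, SE 0.07, adjusted p = 0.512). Pold3 and Pole2 had log2 fold changes of -0.43 and -0.41, and Pola2 of -0.38, all with an adjusted p under 0.05 in the edgeR fit and none called, while Pole2 had 0.0677 with DESeq2. Prim1, the catalytic subunit of the primase, which lays down the RNA primer, had 0.13, and its partner Prim2 had -0.22. Pold4, Pole3 and Pole4, the small subunits that are not among the 49 genes, had 1.80, 0.36 and 0.69. With the trends taken out these 3 genes had 1.47, 0.14 and 0.51. The catalytic subunits of polymerases epsilon and delta also have more exon bases than the accessory subunits of the same enzyme, with 11160 bases for Pole against 2881, 2040 and 2509 bases for Pole2, Pole3 and Pole4, and 4859 bases for Pold1 against 1896, 4601 and 910 bases for Pold2, Pold3 and Pold4. Rfc1 likewise has 6021 bases of exon, while Rfc4 has 1533 bases, although Rfc2, which had a positive value, has 6303 bases. Exon length is taken up again below, because it moved with the fold change over all genes.

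Genes that protect, trim and join strands went both ways. Lig1, the ligase that seals the pieces of the lagging strand, went from 342 and 356 CPM in WT to 154 and 166 CPM in Mek1/2-tKO (log2 fold change -1.13, SE 0.08, adjusted p = 4.60e-08). The subunits of RPA, which coats unwound strands, had log2 fold changes of -0.51 (Rpa1), 0.22 (Rpa2) and 0.45 (Rpa3), each with an adjusted p under 0.05 in the edgeR fit (0.0628 for Rpa2 with DESeq2) and none called, and with the length and GC trends taken out Rpa1 had -0.27, Rpa2 0.15 (adjusted p = 0.152, edgeR) and Rpa3 -0.11. Rpa2 stood at 128 and 134 CPM in WT and at 150 and 156 CPM in Mek1/2-tKO (log2 fold change 0.22, SE 0.08, adjusted p = 0.0307). Fen1, the nuclease that trims flaps on the lagging strand, stood at 8.06 and 6.95 CPM in WT and at 12.2 and 12.4 CPM in Mek1/2-tKO (log2 fold change 0.71, SE 0.19, adjusted p = 0.00678). It was called higher, but not with the trends taken out (0.58). Its counts of 134 to 233 reads a library were the lowest of the 49 genes, and Gm10143 and Tmem258 cover 84.2% of its exon bases, so this value is uncertain. The called genes of this group are Lig1 (ENSMUSG00000056394.17) on chromosome 7 from 13277283 to 13311433 and Fen1 (ENSMUSG00000024742.15) on chromosome 19 from 10199132 to 10204169.

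**Figure D2:**
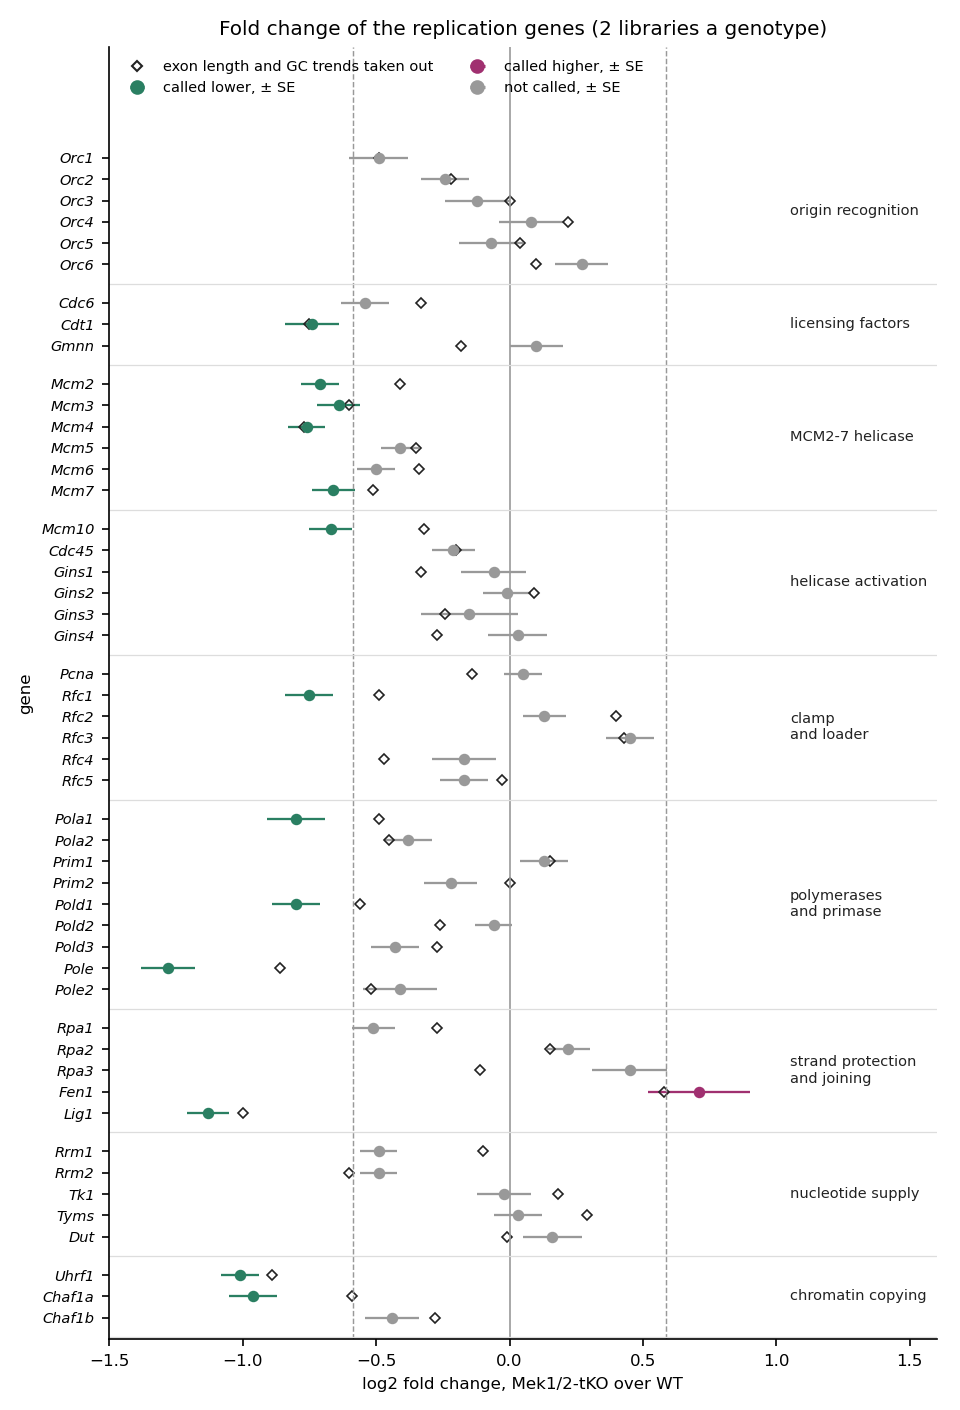
Log2 fold change of each replication gene in Mek1/2-tKO over WT with its standard error (filled circles, coloured by call), and the same value with the trends on exon length and GC content taken out (open diamonds); dashed lines mark a fold of 1.5. Pole at -1.28, Lig1 at -1.13 and Uhrf1 at -1.01 lie farthest to the left, and the diamonds of Mcm2, Mcm10 and Rfc1 lie inside the dashed lines.

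No gene of the nucleotide supply group was called. Rrm1 and Rrm2, the large and small subunits of ribonucleotide reductase, both had a log2 fold change of -0.49. With the length and GC trends described below taken out, Rrm1 had -0.10 (adjusted p = 0.294, edgeR) and Rrm2 -0.60 (adjusted p = 1.58e-05). All annotated exons add up to 11012 bases for Rrm1 and 2771 bases for Rrm2, so this difference depends on the annotated lengths. Which transcripts were expressed was not tested. Rrm1 went from 587 and 576 CPM in WT to 424 and 402 CPM in Mek1/2-tKO (SE 0.07, adjusted p = 6.76e-05), and Rrm2 from 320 and 338 CPM to 236 and 232 CPM (SE 0.07, adjusted p = 7.40e-05). The genes for thymidine nucleotides had values near 0: thymidine kinase Tk1 stood at 115 and 125 CPM in WT and at 130 and 106 CPM in Mek1/2-tKO (log2 fold change -0.02, SE 0.10, adjusted p = 0.869), and thymidylate synthase Tyms and the dUTPase Dut had log2 fold changes of 0.03 and 0.16. With the trends taken out, Tyms had 0.29 (adjusted p = 0.0134, edgeR), Tk1 0.18 and Dut -0.01. In Tk1, Tyms and Dut the libraries of the genotypes overlapped, and the 2 Mek1/2-tKO libraries of Dut differed from each other by more than they differed from WT on average, at 492 and 371 CPM against 378 and 395 CPM.

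The 3 genes that copy chromatin behind the fork all had an adjusted p under 0.05. Uhrf1, which recruits the maintenance DNA methyltransferase to newly copied sites, went from 414 and 413 CPM in WT to 199 and 210 CPM in Mek1/2-tKO (log2 fold change -1.01, SE 0.07, adjusted p = 9.05e-08). Chaf1a, the large subunit of the histone chaperone CAF-1, went from 117 and 118 CPM to 62.1 and 58.4 CPM (log2 fold change -0.96, SE 0.09, adjusted p = 1.10e-06), and Ubxn6 on the other strand covers 52.5% of its exon bases. Chaf1b, the middle subunit, went from 74 and 72 CPM to 52.6 and 55 CPM (log2 fold change -0.44, SE 0.10, adjusted p = 0.00159) and was not called. With the trends taken out, Uhrf1 had -0.89, Chaf1a -0.59 and Chaf1b -0.28. Uhrf1 (ENSMUSG00000001228.14) and Chaf1a (ENSMUSG00000002835.9) both lie on chromosome 17, from 56303321 to 56323486 and from 56040439 to 56072289.

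Levels of different genes were compared as CPM per kb of exon, with all annotated exons of a gene counted, so that ranks depend on the annotation. On this scale Pcna led in both genotypes, at 204 ± 0.218 in WT and 211 ± 4.67 in Mek1/2-tKO (mean ± SD, n = 2 each). In WT it was followed by Mcm3 (175 ± 7.72), Mcm5 (160 ± 0.51) and Dut (160 ± 5.03), and in Mek1/2-tKO by Dut (179 ± 35.4), Mcm5 (120 ± 0.296) and Mcm3 (112 ± 4.54). Mcm5 and Dut did not differ beyond their spread in WT, and the spread of Dut in Mek1/2-tKO reaches the value of Pcna. Lig1 went from rank 11 of the 49 in WT to rank 20 in Mek1/2-tKO, Uhrf1 from rank 8 to rank 13 and Pold1 from rank 15 to rank 22, while Rfc3 went from rank 32 to rank 23 and Rpa2 from rank 20 to rank 12. At the lower end, Pole went from 9.1 ± 0.572 to 3.75 ± 0.159 per kb, rank 44 in WT and the last of the 49 in Mek1/2-tKO. Levels within the MCM2-7 ring ran from 62.9 ± 1.38 (Mcm2) to 175 ± 7.72 (Mcm3) per kb in WT. In Mek1/2-tKO they ran from 38.5 ± 0.555 (Mcm2) to 120 ± 0.296 (Mcm5). Mcm2 has 6956 annotated exon bases and Mcm3 has 3752, and their mean levels in WT were 438 and 657 CPM. The range per kb therefore depends on these lengths and does not give the ratio of the subunits.

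**Figure D3:**
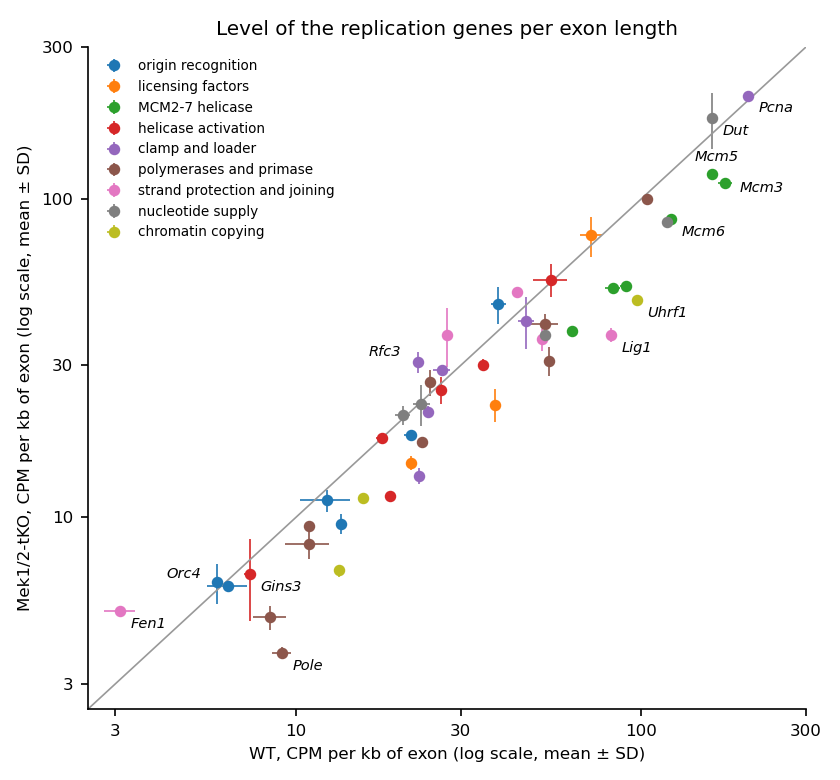
Level of each replication gene in WT (x axis) and Mek1/2-tKO (y axis), as TMM-normalized CPM per kb of exon on log scales, mean ± SD of 2 libraries, coloured by role; the line marks equal levels. Pcna and Dut lie on or near the line at the top, the MCM2-7 genes lie below it, and Pole lies farthest below it at 9.1 against 3.75.

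The fold change moved with exon length over all genes, and the replication genes were therefore read beside their length as well. Exon length is the number of bases in all annotated exons of a gene. It can exceed the length of the transcript that the cells express. Over the 14330 genes tested, the median log2 fold change in 5 classes of 2866 genes went from 0.49 in the class with the shortest exons (12 to 1486 bases) over 0.24, 0.00 and -0.21 to -0.39 in the class with the longest (6779 to 123179 bases). The Spearman correlation of fold change with exon length was -0.39 across all genes and -0.48 across the 49 replication genes, which share the same 4 libraries. It was 0.02 with GC content across all genes. The 2 Mek1/2-tKO libraries also differed from each other by length, with a median log2 difference from 0.14 in the shortest class to -0.09 in the longest, while the 2 WT libraries differed by -0.01 to 0.00. The median exon length was 4097 bases for the 49 genes and 3656 bases for all genes tested, and it was 4859 bases for the 13 genes called lower and 3734 bases for the other 36.

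With the trends on exon length and GC content taken out of all genes, an alternative chosen after seeing the data, 8 of the 49 genes were called lower and 0 were called higher, against 11.8% and 16.8% of all genes. Cdt1, Chaf1a, Lig1, Mcm3, Mcm4, Pole and Uhrf1 were called lower in both analyses. Mcm2, Mcm7, Mcm10, Pola1, Pold1 and Rfc1 were called only before the trends were taken out, with log2 fold changes of -0.41, -0.51, -0.32, -0.49, -0.56 and -0.49 afterwards, each with an adjusted p under 0.05 (edgeR). Rrm2 was called only afterwards, at -0.60. The value of Fen1 became 0.58, short of a call. Among genes that were not called, Gmnn, Gins4, Pcna, Rpa3 and Dut turned from positive to negative (-0.18, -0.27, -0.14, -0.11 and -0.01), and Orc5, Gins2, Tk1 and Prim2 turned from negative to positive (0.04, 0.09, 0.18 and 0.00 after rounding). The median of the 49 genes became -0.27, and 37 of them were negative. The cause of the length trend was not tested.

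**Figure D4:**
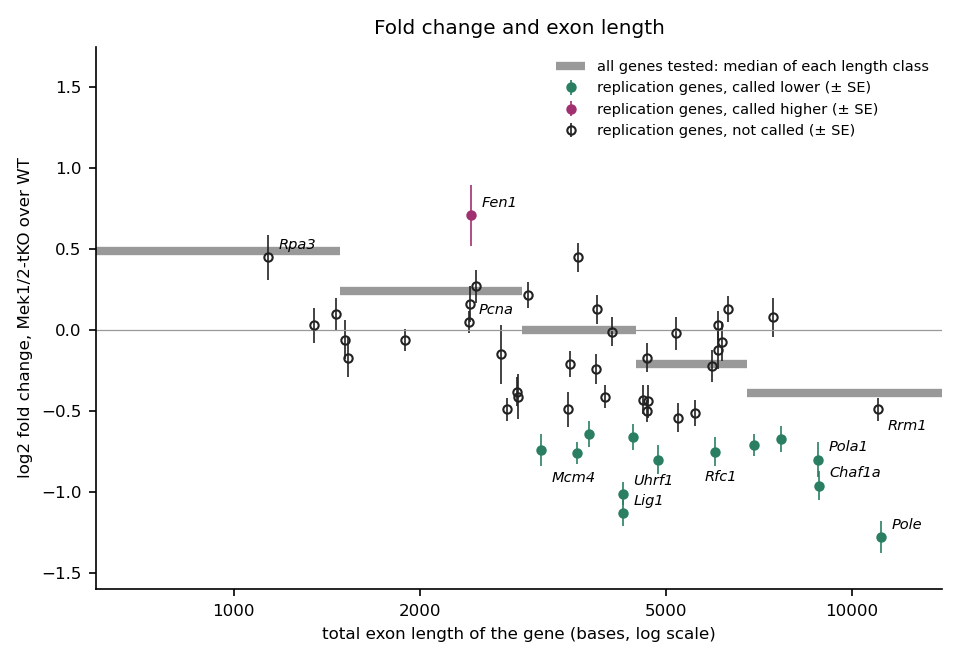
Log2 fold change in Mek1/2-tKO over WT (± SE) of the 49 replication genes against the total exon length of the gene in bases (log scale), with the median of all genes tested in each of the 5 length classes as grey bars, which are cut at the edges of the plot. The bars fall from 0.49 to -0.39, and Lig1, Uhrf1, Mcm4, Pole and Chaf1a lie below the bar of their own length.

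Other genes of the pathway were read from lists. Their counts are to be read beside the 16.4% of all genes called lower and the 19.3% called higher. Of 35 further replication genes, 17 were called lower (48.6%) and 3 higher (8.57%), with a median log2 fold change of -0.56. Ticrr, which helps to fire origins, had -1.54 (39.7 and 36.2 CPM against 10.6 and 15.3 CPM, adjusted p = 3.82e-06), and Rif1, which sets replication timing, had -1.30 (adjusted p = 1.84e-07). The topoisomerase Top2a, which untangles the copied strands, went from 641 and 637 CPM to 265 and 280 CPM (log2 fold change -1.23, adjusted p = 1.37e-08). Pold4 (39.5 and 44.9 CPM against 157 and 137 CPM, log2 fold change 1.80, adjusted p = 9.59e-09) and Pole4 (0.69, adjusted p = 1.89e-05) had the largest positive values, although Pole4 was not called with the length and GC trends taken out (0.51). Of 13 partners in chromatin copying, 3 were called lower (23.1%) and 0 higher, with a median of -0.34; the maintenance DNA methyltransferase Dnmt1, the partner of Uhrf1, went from 454 and 488 CPM to 179 and 206 CPM (log2 fold change -1.29, adjusted p = 3.42e-08), and Tonsl, which reads new histones, went from 28.3 and 31.8 CPM to 11.4 and 18.4 CPM (adjusted p = 4.64e-04).

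Of 20 further nucleotide supply genes, 2 were called lower (10%) and 3 higher (15%), both below the shares of all genes, with a median of -0.30. Cad, which starts pyrimidine synthesis, had -1.17 (286 and 304 CPM against 120 and 141 CPM, adjusted p = 1.20e-07), and Atic, which ends purine synthesis, had -0.63 (adjusted p = 9.68e-06) but was not called with the length and GC trends taken out (-0.29). Samhd1, which breaks down deoxynucleotides, was called higher, from 353 and 354 CPM to 758 and 797 CPM (log2 fold change 1.14, adjusted p = 2.82e-08), and so was Dguok, the mitochondrial deoxyguanosine kinase (log2 fold change 1.27, adjusted p = 3.76e-06).

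Of 32 regulators of the passage from G1 into S phase, 30 could be tested, and 6 were called lower (20%, near the 16.4% of all genes) and 3 higher (10%, against 19.3%), with a median of -0.35. Myc went from 264 and 289 CPM in WT to 112 and 130 CPM in Mek1/2-tKO (log2 fold change -1.19, SE 0.09, adjusted p = 1.31e-07), and Tfdp2, a partner of E2F factors, had -1.12 (adjusted p = 3.32e-05), or -0.66 with the trends taken out. The cell-cycle inhibitor Cdkn1a (p21) was called higher, from 51.5 and 53.2 CPM to 99.7 and 96.9 CPM (log2 fold change 0.91, adjusted p = 2.42e-06), as was Cdkn2a, at a low level of 1.74 and 1.4 CPM against 8.53 and 9.69 CPM (log2 fold change 2.53, adjusted p = 6.23e-06). E2f1 had -0.48 (adjusted p = 0.00214) and Cdkn1b (p27) 0.50 (adjusted p = 0.00107), both under the fold required. Cdkn1b was called higher with the trends taken out (0.61), and E2f1 had -0.60 without Mek1/2-tKO replicate 2. The cyclin Ccne1 stood at 118 and 131 CPM in WT and at 124 and 111 CPM in Mek1/2-tKO (log2 fold change -0.09, adjusted p = 0.452). Of 40 mitotic genes, 19 were called lower (47.5%) and 0 higher (median -0.55), among them Ncapd2 at -1.30 (adjusted p = 4.40e-08), Cenpf at -1.26 (adjusted p = 9.39e-06) and the proliferation marker Mki67, from 302 and 315 CPM to 124 and 141 CPM (log2 fold change -1.21, adjusted p = 4.89e-08). With the length and GC trends taken out, the further replication genes, nucleotide supply genes, chromatin partners, regulators and mitotic genes had 12, 1, 2, 3 and 19 genes called lower and 2, 4, 0, 4 and 1 called higher, where 11.8% of all genes were called lower and 16.8% higher. Their medians were then -0.35, -0.28, -0.24, -0.10 and -0.46, in the same order. For the nucleotide supply genes and the regulators, these counts of lower genes are below the share of all genes.

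**Figure D5:**
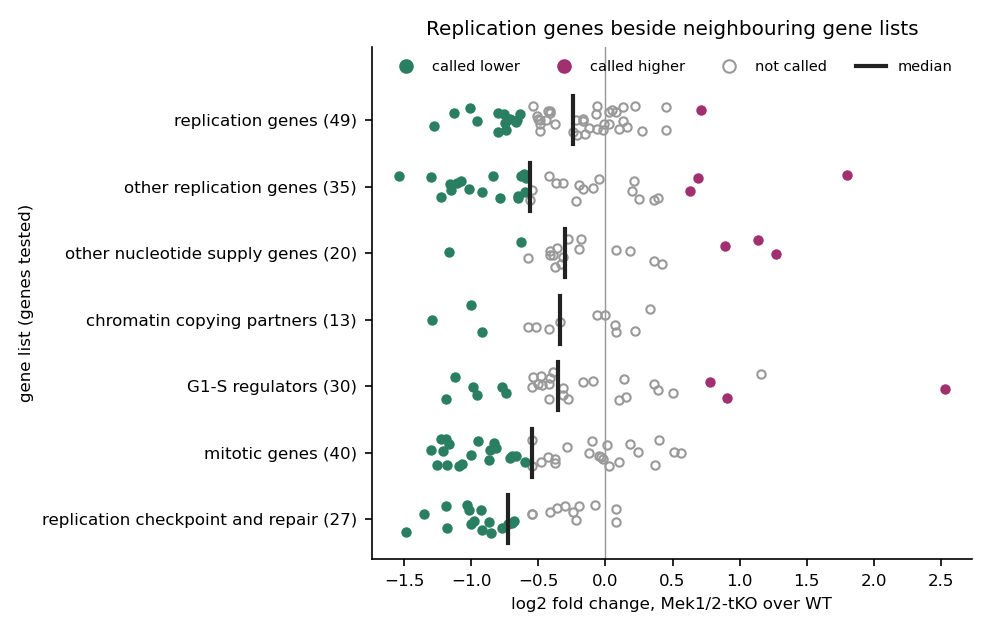
Log2 fold change in Mek1/2-tKO over WT of the tested genes of 7 lists, 1 point per gene with a small random vertical shift, coloured by call, and a black bar at the median of each list. The medians lie between -0.73 (replication checkpoint and repair) and -0.24 (the 49 replication genes), against 0.02 for all genes tested.

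Markers of other cell types moved with the genotype, as given for Cd4 and the B-cell markers above. Of the 15 T-cell markers, 8 were called lower and Thy1 was called higher, with sums of 4424 and 4497 CPM in WT and 3509 and 3313 CPM in Mek1/2-tKO. The 6 markers not called were Cd3d, Cd3g, Trbc1, Trbc2, Lck and Lat, with log2 fold changes of 0.20, 0.24, 0.16, -0.03, -0.54 and -0.55. With the length and GC trends taken out they had -0.06, 0.06, -0.26, -0.48, -0.59 and -0.62, and Lck and Lat were called lower. All 12 B-cell markers were called higher, and the most abundant, Ighm, went from 696 and 670 CPM to 3068 and 3095 CPM. Both CD8 markers were called higher (sums of 67.4 and 59.3 CPM against 238 and 214 CPM), as were all 5 gamma-delta T-cell markers (6.98 and 4.36 CPM against 184 and 165 CPM, led by Trdc in Mek1/2-tKO) and all 7 NK-cell markers (91.7 and 87.8 CPM against 568 and 524 CPM, led by Nkg7). Of the 7 myeloid markers, 4 could be tested and all 4 were called higher, at sums of 4.16 and 4.51 CPM against 24.2 and 18.7 CPM led by Lyz2, and Adgre1 had 0 counts in both WT libraries. Mitochondrial genes took 1.62% and 1.56% of the counts in WT and 2.24% and 1.99% in Mek1/2-tKO. B cells, NK cells and other T cells that divide express the replication genes too, so the level of a replication gene in these libraries is a sum over the cells present, and its share from each was not tested. Naive CD4+ T cells had been isolated with a magnetic kit before culture, a step meant to remove such cells.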

How the data were processed

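RNA of 2 WT and 2 Mek1/2-tKO cultures was sequenced in pairs of 150 nucleotides from a stranded mRNA kit. Per the labels and the study's methods, the authors trimmed the reads with Trimmomatic 0.36, mapped them to GRCm38 and deposited the raw count of uniquely mapped reads per gene from featureCounts of Subread 1.5.1. The strand setting and the annotation release are not given in the sources used here, so reads of genes that overlap on opposite strands may not be told apart.

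From these counts, genes with enough reads were kept by filterByExpr, scaled by TMM and fitted by a robust quasi-likelihood model without a replicate block (edgeR 4.0.16, R 4.3.3), with Benjamini-Hochberg adjustment over 14330 genes, and CPM and CPM per kb of exon used the TMM factors. A fold change is Mek1/2-tKO over WT, and its SE was taken from the F statistic. The biological coefficient of variation was 0.0918. The chi-square per gene between replicates, 3.58 (WT) and 8.16 (Mek1/2-tKO), exceeded sampling noise. On simulated counts of this comparison with 200 changed genes, edgeR recovered 100% of the genes changed by a fold of 2. It called 4 unchanged genes among 14260. DESeq2 recovered 90% of the genes changed by a fold of 2 and called 0 unchanged genes among 15600.

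Symbols were matched to 54723 of 54752 identifiers. The 49 genes and the lists were chosen with earlier results of these data known. All 49 are named, with full statistics for the members with the largest and smallest change of each role group, Mcm2 to Mcm7 and Pcna. From each further list the 2 called genes with the largest change in each direction are named, with Mki67, E2f1, Ccne1, Myc and Cdkn1b whatever their change; Top2a, Pole3 and Rrm2 were added after their values were seen. Alternatives were DESeq2 1.42.0, its size factors, library size alone, other filters and thresholds, a replicate block, leaving out each library and, added after the data were seen, lowess trends (span 0.3) on exon length and GC content taken out. Promoters came from RefSeq. Some genes of the lists are counted in them but are not reported here by name.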

Additional observations from a re-analysis of the deposited data

How the results depend on the processing

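With 2 libraries a genotype, each adjusted p borrows its variance from other genes. The 13 replication genes called lower were 13 with DESeq2, DESeq2's size factors, either filter and the replicate block. They were 16 with library size alone (Cdc6, Mcm6 and Rpa1 more), where 2848 of all 14330 genes were called lower. With the exon length trend taken out they were 9, where 1699 of all genes were called lower. With the exon length and GC trends taken out, 8 replication genes were called lower, where 11.8% of all genes were. The 1 gene called higher, Fen1, was lost with either trend correction, leaving 0. Without a fold threshold 25 of the 49 were lower and 5 higher, against 3903 (27.2%) and 3983 (27.8%) of all 14330 genes. At a fold of 2, 3 of the 49 were lower and 0 higher, against 1040 and 1725 of all 14330 genes. The share called lower at a fold of 2 was thus no larger among the 49 than among all genes. Leaving out 1 library leaves 1 in that genotype, so the spread then comes from the other genotype alone. These fits were therefore read for fold change only, and the median of the 49 genes was then between -0.32 and -0.26. The median log2 fold change of the 49 genes stayed between -0.33 and -0.22. With the replicate block it was -0.24 and all genes gave 2652 higher and 2300 lower; same-numbered libraries did not deviate together (correlation -0.0262), and the block changed no call of a replication gene. Of the 14 called members, 7 kept their call in every alternative with all libraries and the same threshold: Cdt1, Mcm3, Mcm4, Pole, Lig1, Uhrf1 and Chaf1a. Of 588 alternative values of the members, which include the fits without 1 library, 39 changed sign, none of them in a called gene. Whether depth limited the calls of the members was not tested, and Fen1 had at most 233 counts in a library.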

Other observations

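Genes of the replication checkpoint and of repair, which guard stalled and broken forks, were described as a further list. Of 27 genes tested, 16 were called lower (59.3%, against 16.4% of all genes) and 0 higher, with a median log2 fold change of -0.73, and with the exon length and GC trends taken out 9 were called lower, where 11.8% of all genes were, and 0 higher, with a median of -0.48. Brca2, which acts in the repair of broken ends, stood at 21.2 and 24.8 CPM in WT and at 7.82 and 8.57 CPM in Mek1/2-tKO (log2 fold change -1.49, SE 0.17, edgeR adjusted p = 6.43e-06). Brca1 went from 57.7 and 50.1 CPM to 21 and 21.1 CPM (log2 fold change -1.35, SE 0.12, adjusted p = 6.70e-07), and its partner Bard1 from 31.4 and 29.5 CPM to 13.4 and 13.4 CPM (log2 fold change -1.18, adjusted p = 8.61e-06). Of the kinases, Atr, Atm and Chek2 were called lower at -1.03, -0.68 and -0.93, while Chek1 had -0.41 and Wee1 had -0.30, neither called.

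The median exon length of the list was 6649 bases, and how its values vary with length was not tested. Atr, with 23629 bases, and Atm, with 10338 bases, were not called with the trends taken out (-0.54 and -0.30), whereas Brca1, Brca2, Bard1, Palb2, Fanci, Blm and Chek2 were among those that were. The 3 members of the checkpoint clamp differed among themselves, with Rad9a at 0.08, Rad1 at 0.08 and Hus1 at -0.73, but with the trends taken out none was called, at -0.12, 0.37 and -0.48. Bard1, Atr, Atm, Chek1, Wee1, Rad9a, Rad1, Hus1, Palb2, Fanci, Blm and Chek2 were chosen for mention after their values were seen. The same marker genes of B cells and other cells that differ between the genotypes stand beside these values, and their part was not tested.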
